A study of Mus musculus with 6 samples.

Results

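The chromosome 1 cluster is made of 10 genes that lie near each other on mouse chromosome 1, in the order Uck2, Tmco1, Aldh9a1, Mgst3, Rxrg, Nuf2, Rgs5, 3110045C21Rik, Nos1ap and Olfml2b. They were chosen from these same arrays because they differed between the groups as neighbours, so their group differences are given as a description and without a test. All probe sets annotated to exactly 1 of these symbols were taken, which gave 21 of 45037 probe sets and 10 of 18193 measured genes. In the L26 hippocampus 9 of the 10 genes were higher than in wild type and Aldh9a1 was lower, judged by the brightest probe set of each gene.

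The hippocampi came from adult male mice of the daDREAM line L26, homozygous for the transgene (3 mice), and from wild type littermates (3 mice), both on a C57B6xCBA background. daDREAM is a dominant active form of DREAM, a calcium-sensitive repressor of transcription in neurons. Each sample was hybridised to its own Affymetrix Mouse Genome 430 2.0 array, and the series text calls the 3 hybridizations of a group independent biological replicates. L26 is 1 transgenic line, its insertion site and the promoter that drives the transgene were not known here, and the other line named in the labels, L1, was not analysed here. The labels do not give which strain's chromosome 1 each animal carried, so the transgene and a chromosome segment inherited with it cannot be told apart in this design.

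The 10 genes share their place on the chromosome and no common pathway. Uck2 (uridine-cytidine kinase) phosphorylates uridine and cytidine for the salvage of pyrimidine nucleotides, Aldh9a1 oxidises aldehydes in carnitine synthesis and in a minor route to GABA, and Mgst3 is a microsomal glutathione transferase. Tmco1 is a calcium channel of the endoplasmic reticulum, Rxrg a nuclear receptor that pairs with retinoic acid and other receptors, and Nuf2 a subunit of the NDC80 complex that holds chromosomes to the spindle. Rgs5 shortens G protein signals and marks pericytes in brain, Nos1ap is an adaptor of neuronal nitric oxide synthase, and Olfml2b belongs to the olfactomedin-like family. Neighbouring genes can differ together between mouse lines that carry different strain haplotypes, and a base change under an array probe can alter its signal without a change in the transcript. Probe sequences were not used here, so the part of either in the values below was not tested.

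DREAM binds DNA at elements with the core GTCA, so the promoters of the 10 genes were searched on both strands for GTCA and for the longer GTCANNG, of which GTCA is a part. RefSeq promoter windows of 300 bases (250 before and 50 after the start, build GRCm38.p6) were found for all 10 genes, 12 windows in all since Rxrg and Nos1ap have 2 each. GTCA was present in 12 of 12 windows, against 85.2% of all 32851 windows, and GTCANNG in 7 of 12 (58.3%), against 42.3% of all. The windows of Uck2, Rxrg (the upstream of its windows) and Aldh9a1 are shown with GTCANNG matches in capitals. Uck2 had the largest difference on the brightest probe sets, and Aldh9a1 was the only cluster gene that was lower. By the mean of a gene's probe sets Uck2 did not rank first (0.41, against 0.70 for Nuf2). A match on the opposite strand reads CNNTGAC.
Uck2 (chr1:167285078-167285377, strand -): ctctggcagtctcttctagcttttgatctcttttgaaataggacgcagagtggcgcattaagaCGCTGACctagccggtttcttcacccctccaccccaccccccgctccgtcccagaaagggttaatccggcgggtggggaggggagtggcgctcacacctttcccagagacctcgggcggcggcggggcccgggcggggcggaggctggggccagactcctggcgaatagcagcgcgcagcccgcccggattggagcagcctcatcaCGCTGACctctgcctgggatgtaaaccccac
Rxrg (chr1:167598112-167598411, strand +): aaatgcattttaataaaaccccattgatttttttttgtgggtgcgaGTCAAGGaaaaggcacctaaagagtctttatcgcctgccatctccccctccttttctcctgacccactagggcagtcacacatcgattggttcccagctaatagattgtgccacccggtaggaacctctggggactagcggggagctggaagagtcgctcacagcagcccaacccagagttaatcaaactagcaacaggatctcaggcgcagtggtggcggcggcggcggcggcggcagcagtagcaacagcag
Aldh9a1 (chr1:167349741-167350040, strand +): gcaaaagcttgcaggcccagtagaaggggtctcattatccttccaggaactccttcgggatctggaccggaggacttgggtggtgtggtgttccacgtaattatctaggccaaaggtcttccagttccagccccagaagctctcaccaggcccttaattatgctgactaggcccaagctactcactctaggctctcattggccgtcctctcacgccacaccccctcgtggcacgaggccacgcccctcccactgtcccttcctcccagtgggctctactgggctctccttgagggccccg
The Uck2 window held 2 matches, both on the opposite strand, and the Aldh9a1 window held none. The Rxrg window shown held 1, and the other Rxrg window held none. The Tmco1, Nuf2 and Rgs5 windows also held none, so windows with and without these letters were found among genes that were higher in L26.

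Array medians lay between 7.30 and 7.32 in L26 and between 7.27 and 7.29 in wild type on the log2 scale. Values are RMA expression values on that scale, and a probe set was called when its adjusted p from limma, over all probe sets, was under 0.05. All 19 measured markers of hippocampal neurons lay above the middle of the probe set ranking, and 6 of them rose and 0 fell in L26. Of all 18193 genes, 478 were higher and 467 lower. With each array centred on its own median the split was 382 higher and 690 lower.

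The groups did not overlap for 10 of 10 cluster genes on their brightest probe sets, where 24.1% of all genes had no overlap. By the call, 10 of 10 passed, where 5.19% of all genes did, and nothing is read from either count, or from the calls below, because the genes were chosen for it. Over all of their probe sets, 14 of 21 passed (3.92% of all probe sets) and 19 of 21 did not overlap (21.9% of all). The median size of the difference was 0.37 over the 21 probe sets and 0.07 over all probe sets. The calls of 4 genes depended on which array was left out. Aldh9a1 was lost without L26 replicate 3, and Mgst3 without L26 replicate 2 or L26 replicate 3. Nos1ap was lost without L26 replicate 1, L26 replicate 3, wild type replicate 1 or wild type replicate 2, and Olfml2b without any array except L26 replicate 3. Without L26 replicate 3, 9 of the 21 probe sets were called.

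**Figure D1:**
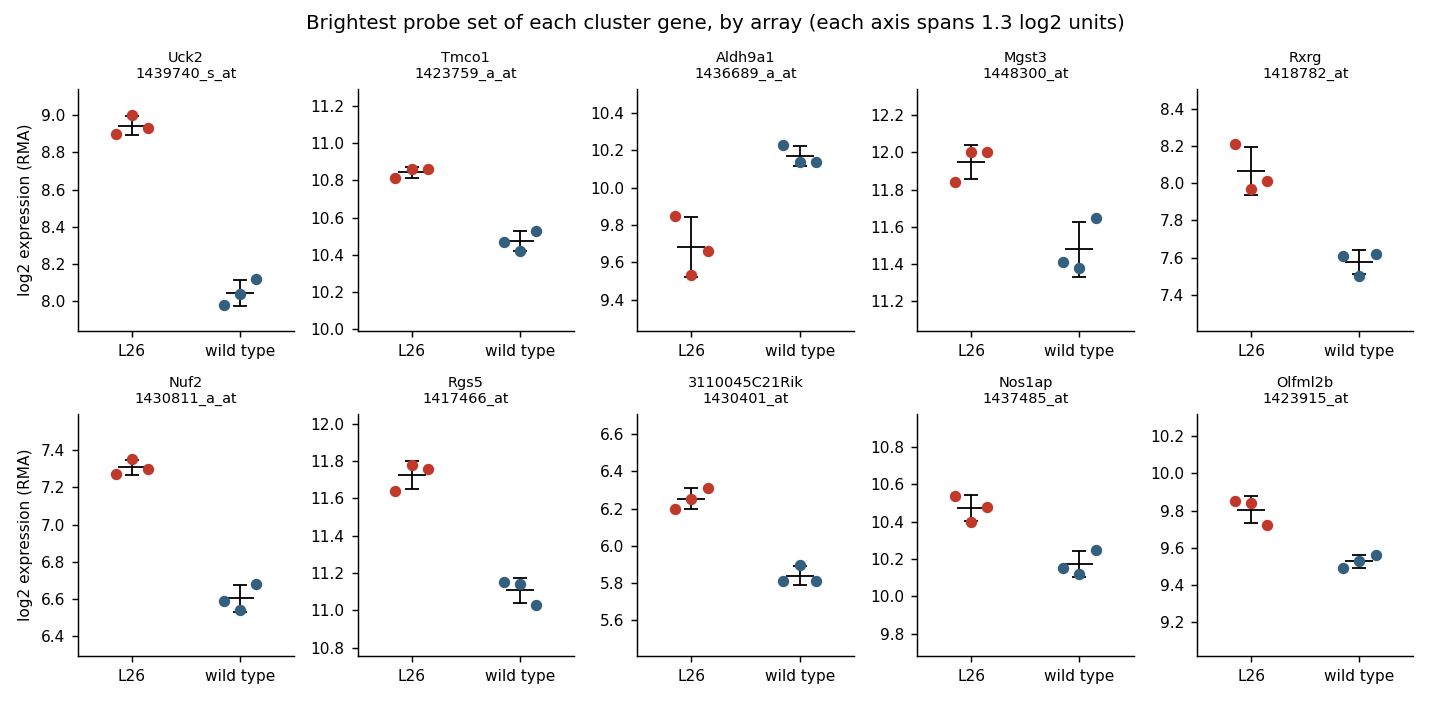
Log2 expression of the brightest probe set of each of the 10 cluster genes, with L26 left of wild type; points are arrays, and bars show the mean and SD of 3 arrays. The L26 points lie above the wild type points in 9 panels and below them for Aldh9a1.

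Among the metabolic enzymes, Uck2 had values of 8.90, 9.00 and 8.93 in L26 and 7.98, 8.04 and 8.12 in wild type on probe set 1439740_s_at. The lowest L26 array was 0.78 above the highest wild type array, the widest gap of the cluster, and the difference of 0.90 (SE 0.06) corresponds to a 1.86-fold level. Probe sets with this ending can match related transcripts. The probe set 1426909_at, which has no such ending, gave 8.72, 8.87 and 8.69 in L26 and 8.15, 8.22 and 8.11 in wild type, a difference of 0.60 (SE 0.07). The other 4 Uck2 probe sets had smaller differences, between 0.10 and 0.34. The mean of all Uck2 probe sets differed by 0.41. In wild type 1439740_s_at averaged 8.05, below 1448604_at at 8.22, so its rank as the brightest came through the L26 arrays.

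Mgst3 measured 11.84, 12 and 12 in L26 and 11.41, 11.38 and 11.65 in wild type on 1448300_at, so that wild type replicate 3 came nearest to L26. This difference was 0.47 (SE 0.08), or 1.38-fold. The other Mgst3 probe set, 1450563_at, overlapped between the groups, with 6.31, 6.38 and 6.31 in L26 and 6.17, 6.54 and 6.26 in wild type. It was brighter than 32.7% of all probe sets, against 96.2% for 1448300_at, and the arrays carry no detection calls.

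Aldh9a1 was the exception in direction. Its probe set 1436689_a_at had 9.85, 9.53 and 9.66 in L26 and 10.23, 10.14 and 10.14 in wild type, with every L26 array lower. The difference was -0.49 (SE 0.08), and L26 replicate 1 was the nearest to wild type. On 1437398_a_at the values were 8.73, 8.60 and 8.74 in L26 and 8.97, 8.94 and 8.86 in wild type, a smaller difference of -0.23 (SE 0.06) with the same sign.

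Tmco1, of the endoplasmic reticulum, had the tightest L26 values of the 10 genes on their brightest probe sets, 10.81, 10.86 and 10.86, against 10.47, 10.42 and 10.53 in wild type. Its only probe set differed by 0.37 (SE 0.06, 1.29-fold).

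The nuclear receptor gene Rxrg had 8.21, 7.97 and 8.01 in L26 and 7.61, 7.50 and 7.62 in wild type, a difference of 0.49 (SE 0.07, 1.40-fold) in which L26 replicate 1 stood above the other L26 arrays. The striatal markers, of a tissue where Rxrg is also expressed, averaged 8.44 to 8.63 in L26 and 8.54 to 8.63 in wild type. Of the 12 striatal markers measured, 1 rose, 2 fell and 9 did not pass (25% called, against 5.19% of all genes). Their part in the Rxrg value was not tested.

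Nuf2, the kinetochore gene, had 7.27, 7.35 and 7.30 in L26 and 6.59, 6.54 and 6.68 in wild type, so the groups were 0.59 apart at their nearest arrays. The difference of 0.70 (SE 0.06) was the next largest after Uck2 among the brightest probe sets. Of 19 markers of dividing cells 0 passed with limma (2 had an unadjusted p under 0.05), and their mean per array ran from 6.93 to 6.98 in L26 and from 6.91 to 6.97 in wild type.

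Rgs5 had 11.64, 11.78 and 11.76 in L26 and 11.15, 11.14 and 11.03 in wild type on its brightest probe set, 1417466_at. The difference was 0.62 (SE 0.06, 1.54-fold), and every L26 array was higher on each of the 4 Rgs5 probe sets. L26 replicate 2 was the highest array on all of them. Other markers of pericytes and smooth muscle moved on the same arrays: 4 of 16 rose and 0 fell (25% called, against 5.19% of all genes). The mean of the 16 ran from 8.18 to 8.25 in L26 and from 7.90 to 7.99 in wild type. The pericyte receptor gene Pdgfrb rose by 0.68 (SE 0.08, limma adjusted p = 0.00238 over genes) and the channel subunit gene Abcc9 by 0.58 (SE 0.09, limma adjusted p = 0.0102). Their probe sets ranged from 0.12 to 0.68 for Pdgfrb and from 0.16 to 0.58 for Abcc9. Endothelial markers rose in 6 of 18 cases and fell in 0 (33.3% called). They were led by the tight junction gene Cldn5 (0.95, SE 0.08, limma adjusted p = 0.000334), with Kdr at 0.63 (SE 0.07, limma adjusted p = 0.0025). The part of these vascular markers in the Rgs5 value was not tested. In such whole-tissue samples, more cells of a type and more RNA per cell cannot be told apart.

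Nos1ap had 10.54, 10.40 and 10.48 in L26 and 10.15, 10.12 and 10.25 in wild type on 1437485_at. Its other probe set, 1430442_at, had 8.71, 8.86 and 8.77 in L26 and 8.38, 8.65 and 8.40 in wild type. Both differences were 0.30 (SE 0.06 and 0.08), and on 1430442_at only 0.06 separated the nearest arrays of the groups.

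Olfml2b had 9.85, 9.84 and 9.72 in L26 and 9.49, 9.53 and 9.56 in wild type, the smallest difference of the 10 genes (0.28, SE 0.06). Markers of leptomeninges and fibroblasts had array means of 8.52 to 8.76 in L26 and 8.25 to 8.55 in wild type, which overlapped. Of the 18 markers 2 were higher (Col3a1 by 1.01, with 0.01 on its other probe set, and Slc6a13 by 0.45) and 16 did not pass. The share called was 11.1%, against 5.19% of all genes. The part of these markers in the Olfml2b value was not tested. The transcript 3110045C21Rik had 6.20, 6.25 and 6.31 in L26 and 5.81, 5.90 and 5.81 in wild type, a difference of 0.41 (SE 0.06), on a probe set brighter than only 27% of all.

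Over the arrays, the L26 values turned to the direction of each gene's difference averaged 0.22, 0.28 and 0.25 log2 units above the mean of all 6 arrays, against -0.27, -0.27 and -0.21 in wild type. L26 replicate 1 was the nearest to wild type for 7 of the 10 genes. L26 replicate 2 was the farthest from wild type for 4 genes and shared that place for 2 more.

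Probe sets within a gene were then compared, by their group differences and not by their levels. In 5 of the 10 genes there were several probe sets, and in 0 of these 5 did every probe set pass. Only 3.92% of all probe sets passed, and the same share was not counted over all genes. Nothing is read from this count, since a probe set can miss the threshold with the same difference as another that passed. The 19 probe sets of the 9 genes that were higher all had differences above 0, from 0.01 to 0.90, and both of Aldh9a1 lay below 0. In Nos1ap the differences of its probe sets lay 0.00 apart (SE 0.14). The within-array difference separated the groups completely for 16 of the 24 pairs of probe sets of these 5 genes (66.7%), against 19.2% of the 30372 such pairs of all genes, a description since the choice of genes used these differences. By gene it was 9 of 15 pairs in Uck2, 5 of 6 in Rgs5, 1 of 1 in Aldh9a1 and in Mgst3, and 0 of 1 in Nos1ap. At least 1 such pair was held by 78.3% of all genes with 15 pairs, 53.7% of those with 6 pairs and 17.7% of those with 1 pair. Pairs of 1 gene share probe sets, so they are not separate units.

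**Figure D2:**
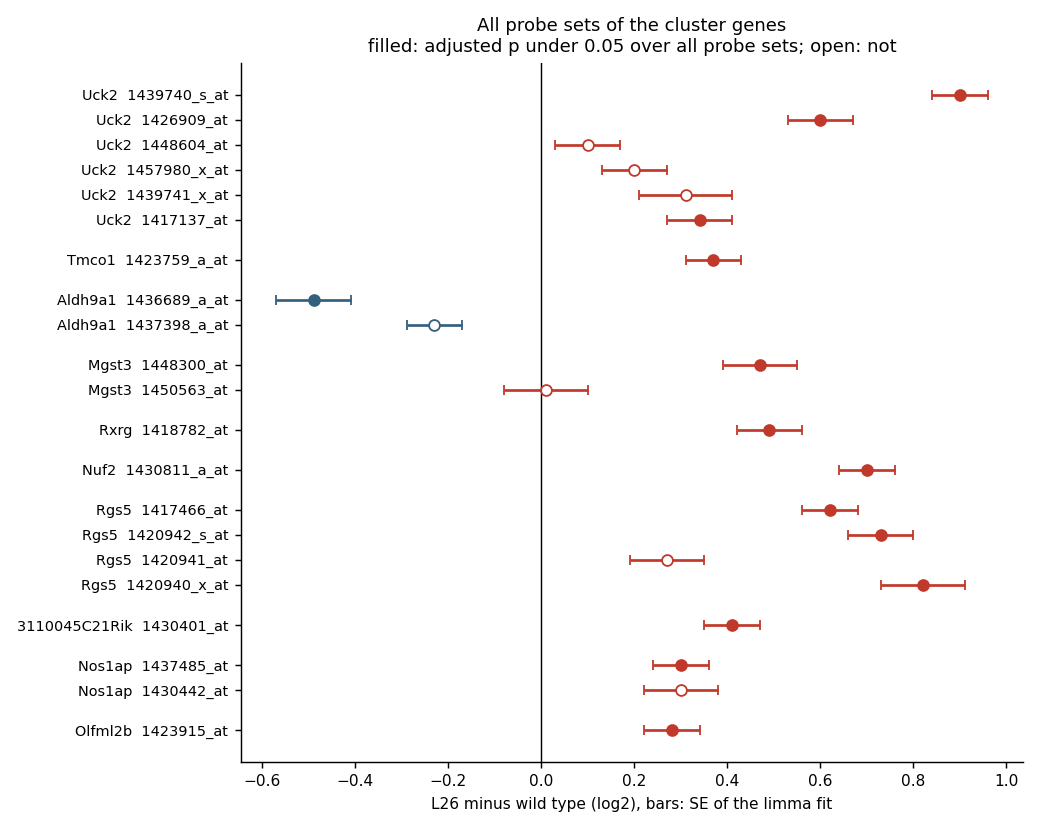
L26 minus wild type on the log2 scale for all 21 probe sets, grouped by gene, with SE bars from limma; filled points passed an adjusted p of 0.05 over all probe sets. Differences run from -0.49 (Aldh9a1) to 0.90 (Uck2), with the open points of Mgst3 and Uck2 nearest to 0.

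Uck2 showed the widest range, 0.79 between 1439740_s_at and 1448604_at (SE 0.09). The probe set 1448604_at gave 8.22, 8.36 and 8.40 in L26 and 8.26, 8.26 and 8.15 in wild type, and overlapped between the groups. It is annotated to the same transcript record as 1417137_at, which had 6.36, 6.29 and 6.26 in L26 and 6.08, 5.83 and 5.99 in wild type and a difference of 0.34 (SE 0.07). The 2 Uck2 probe sets annotated to another shared record also differed, with 0.90 on 1439740_s_at and 0.31 on 1439741_x_at, 0.58 apart (SE 0.11). Single arrays moved the smaller differences: without wild type replicate 1 that of 1439741_x_at was 0.18, and without L26 replicate 1 that of 1448604_at was 0.16, against 0.10 with all arrays.

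For Rgs5, the 3 probe sets annotated to 1 shared record had differences of 0.82 (1420940_x_at), 0.73 (1420942_s_at) and 0.27 (1420941_at). The values of 1420941_at were 9.57, 9.85 and 9.57 in L26 and 9.37, 9.44 and 9.37 in wild type, so all 3 L26 arrays lay nearer to wild type there than on the other Rgs5 probe sets, and without L26 replicate 2 the difference was 0.18. It lay 0.46 below 1420942_s_at (SE 0.08), which had 9.95, 10.13 and 10.08 in L26 and 9.37, 9.38 and 9.23 in wild type. The probe sets of Aldh9a1 lay 0.26 apart (SE 0.07) and those of Mgst3 0.46 apart (SE 0.17). The largest difference was on 1439740_s_at in Uck2 (0.90) and on 1420940_x_at in Rgs5 (0.82), followed there by 1420942_s_at (0.73). The highest without an _x_at or _s_at ending was 0.60 in Uck2 and 0.62 in Rgs5. The Uck2 probe sets 1439741_x_at (0.31) and 1457980_x_at (0.20) lay lower, so size did not follow the ending throughout. With these endings 3 of 5 passed, and 11 of the other 16, from which nothing is read.

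**Figure D3:**
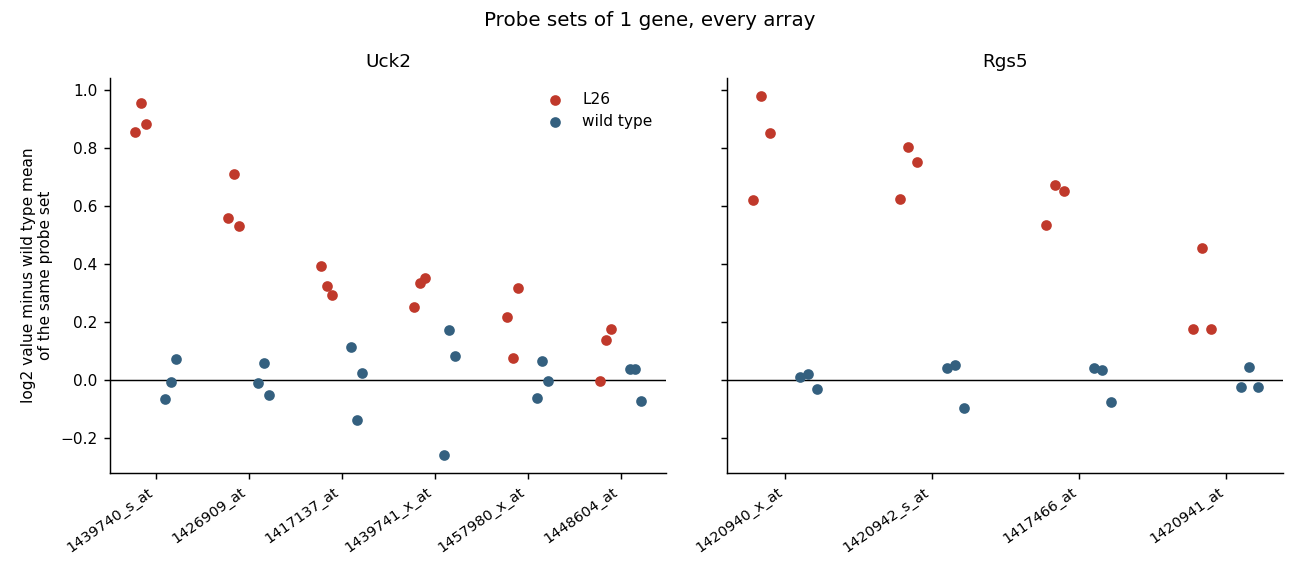
Log2 value of every array minus the wild type mean of the same probe set, for the 6 Uck2 and 4 Rgs5 probe sets, with L26 left of wild type and ordered by difference. The L26 points sit about 0.90 up on the leftmost Uck2 probe set and mix with wild type on 1448604_at, while all 4 Rgs5 probe sets keep the groups apart.

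Between Uck2 and Olfml2b, 19 genes were measured in RefSeq order, and the 9 that are not in the cluster lay among those that are. Of these 9, 0 passed with limma on the brightest probe set, which their absence from the cluster implies, and 4 had an unadjusted p under 0.05 (44.4%, against 20.3% of all genes). The groups did not overlap for 5 of the 9 (55.6%, against 24.1% of all genes). Among the 20 measured genes before Uck2, 30% had an unadjusted p under 0.05 and 35% did not overlap. For the 20 after Olfml2b these shares were 35% and 25%. Rgs4, a close relative and the next gene after Rgs5, had 11.54, 11.70 and 11.69 in L26 and 11.81, 11.85 and 11.76 in wild type, a difference of -0.16 (SE 0.06) against 0.62 for Rgs5. The 3 Rgs4 probe sets had differences of -0.29 to -0.16, and none passed.

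Ddr2, a collagen receptor gene, had 0.19 (SE 0.07) on its brightest probe set, but 1455688_at gave 7.43, 7.37 and 7.57 in L26 and 6.95, 6.71 and 7.06 in wild type. That difference of 0.55 (SE 0.09) passed over all probe sets, although Ddr2 is not among the cluster genes. Uap1, of amino sugar synthesis, had differences of -0.25 to -0.15 on its 5 probe sets, with the groups apart on each and none past the threshold. The kinase gene Uhmk1 ranged from -0.04 to 0.32 over 5 probe sets, Hsd17b7 from -0.10 to 0.16 over 4, and Spata46 had -0.13 (SE 0.06). Lrrc52, Lmx1a and Gm7694 had differences of -0.02, -0.02 and 0.00, on probe sets brighter than only 10.1%, 23% and 8.72% of all.

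Outside the cluster, the nearest measured genes before Uck2 were Fam78b (0.13, SE 0.07) and Pogk (-0.01, SE 0.06), both with overlapping groups on the brightest probe set. The other Fam78b probe set, 1453861_at, differed by 0.14 with the groups apart. The nearest after Olfml2b were Atf6 (0.08, SE 0.06), which overlapped, and Dusp12 (-0.21, SE 0.05), which did not overlap on its brightest probe set but had 0.14 on 1441436_at. None of these 4 genes passed. Among the 20 measured genes on either side, 1 passed before Uck2, Mpzl1 (0.35, SE 0.05), and 1 after Olfml2b, Fcer1g (0.33, SE 0.06), 5% on each side. Both had larger differences than Nos1ap and Olfml2b, and Fcer1g is also 1 of the microglia markers used below. Adamts4, a protease gene after Olfml2b, did not pass on its brightest probe set (0.28, SE 0.11). On 1455965_at Adamts4 had 8.22, 8.87 and 8.46 in L26 and 7.12, 7.16 and 7.02 in wild type, a difference of 1.42 (SE 0.14) that passed over all probe sets and was larger than any of the cluster. Over the rest of chromosome 1 59 of 1038 genes passed (5.68%). The median size of the difference was 0.28 for the 19 genes from Uck2 to Olfml2b and 0.13 for the 9 not in the cluster. It was 0.11 for the 20 genes before, 0.11 for the 20 after and 0.07 for all genes. The medians of the 19 and of the 9 genes depend on how the cluster genes were chosen, so nothing is read from them.

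**Figure D4:**
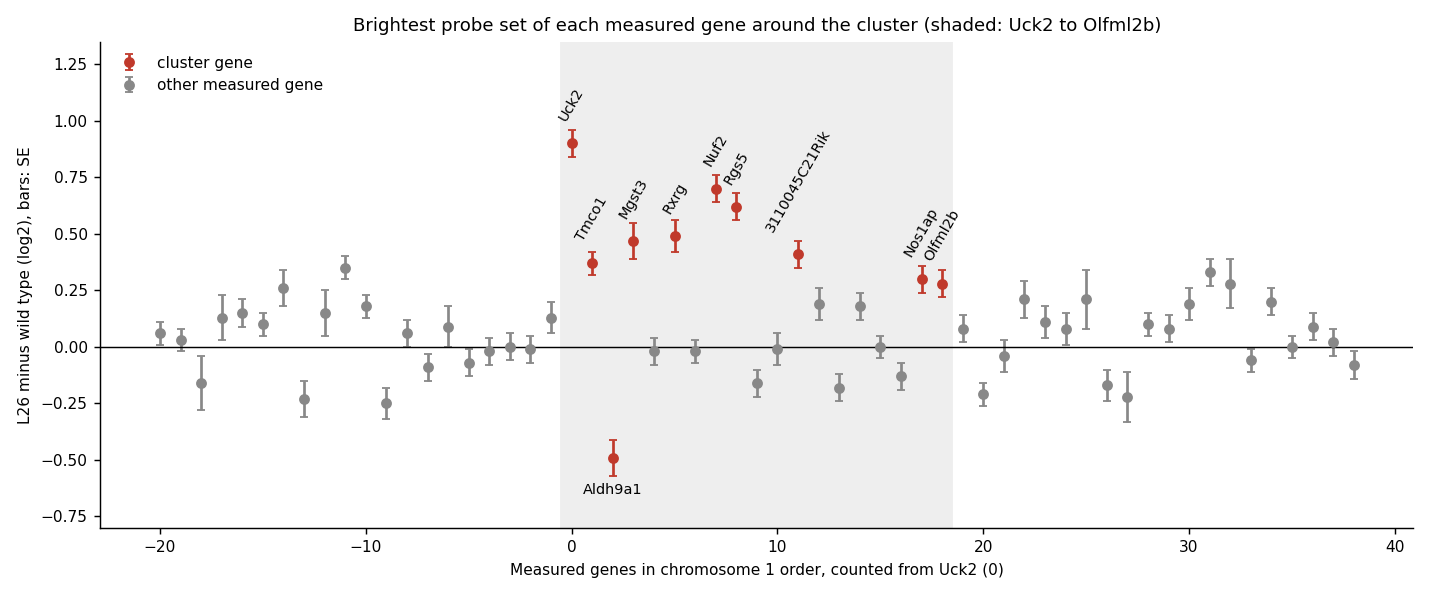
L26 minus wild type on the log2 scale, with SE bars, for the brightest probe set of each measured gene from 20 before Uck2 to 20 after Olfml2b, in chromosome order. The cluster genes stand between 0.28 and 0.90 and at -0.49, and the other genes lying between them run from -0.18 to 0.19.

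Genes elsewhere that belong to the same pathways or families as the cluster genes were mostly not called, but only 5.19% of all genes were. The median difference over all genes was 0.01. The share called was 10% in carnitine synthesis and GABA turnover and 8.33% among MAPEG and glutathione genes. It was 6.06% in the endoplasmic reticulum list and 5.56% among aldehyde dehydrogenases. Of 25 other genes of nucleoside salvage and pyrimidine synthesis, 0 passed with limma (4 had an unadjusted p under 0.05, and 2 were lower with centred arrays), with a median of -0.01. Tk2, the mitochondrial thymidine kinase gene, came nearest with 8.95, 8.98 and 9.03 in L26 and 9.16, 9.25 and 9.19 in wild type (-0.21, limma adjusted p = 0.0533). Of 33 genes of calcium handling and membrane insertion at the endoplasmic reticulum, 2 rose and 31 did not pass. These were the translocon gene Sec61a1 (0.21, SE 0.05, limma adjusted p = 0.0477) and the chaperone gene Calr (0.23, SE 0.06, limma adjusted p = 0.0492), and with centred arrays neither passed. The 6 Sec61a1 probe sets ranged from -0.02 to 0.26.

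Of 18 other aldehyde dehydrogenases 1 fell, Aldh7a1, of lysine breakdown, with 9.58, 9.54 and 9.68 in L26 and 9.96, 10.13 and 9.97 in wild type (-0.42, SE 0.07, limma adjusted p = 0.00901). Its 3 probe sets ranged from -0.42 to 0.02. In carnitine synthesis and GABA turnover 2 of 20 rose. Bbox1, which makes carnitine in the last step of the route that Aldh9a1 serves, had 7.35, 7.16 and 7.33 in L26 and 6.75, 6.65 and 6.93 in wild type (0.50, SE 0.08, limma adjusted p = 0.0109), with 0.12 on its other probe set. The carnitine carrier gene Slc25a20 rose by 0.36 (SE 0.08, limma adjusted p = 0.0281), so both differed from Aldh9a1 in direction. Of 36 other MAPEG and glutathione genes 1 rose (Gsto1, 0.41, SE 0.08, with 0.12 on its other probe set) and 2 fell (Gstm6, -0.46, SE 0.06, and Gsta2, -0.40, SE 0.09), and 33 did not pass.

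The relatives of Rxrg, Nuf2, Rgs5 and Nos1ap were called in 3.12%, 2.56%, 0% and 3.45% of cases, beside 5.19% of all genes. Of 32 retinoid receptor and retinoic acid genes 1 fell, the nuclear receptor gene Nr4a2 (-0.46, SE 0.10, limma adjusted p = 0.0349), which is also induced by neuronal activity and whose 6 probe sets ranged from -0.55 to 0.12. Of 39 kinetochore and checkpoint genes 1 fell, Incenp of the chromosomal passenger complex (-0.32, SE 0.06, limma adjusted p = 0.0168), and 38 did not pass, with a median of 0.01. The 5 Incenp probe sets ranged from -0.32 to 0.08. Of 19 other regulators of G protein signalling 0 passed with limma (4 had an unadjusted p under 0.05), with a median of -0.07, and Rgs7 came nearest (-0.16, limma adjusted p = 0.0954). Of 29 nitric oxide genes and Nos1 partners 1 fell, the phosphodiesterase gene Pde1b (-0.27, SE 0.06, limma adjusted p = 0.0416), and 0 passed after repeated quantile normalization. Of 10 other olfactomedin domain genes 0 passed with limma (4 had an unadjusted p under 0.05, and 2 were lower with centred arrays), with Olfm3 nearest (-0.27, limma adjusted p = 0.054).

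**Figure D5:**
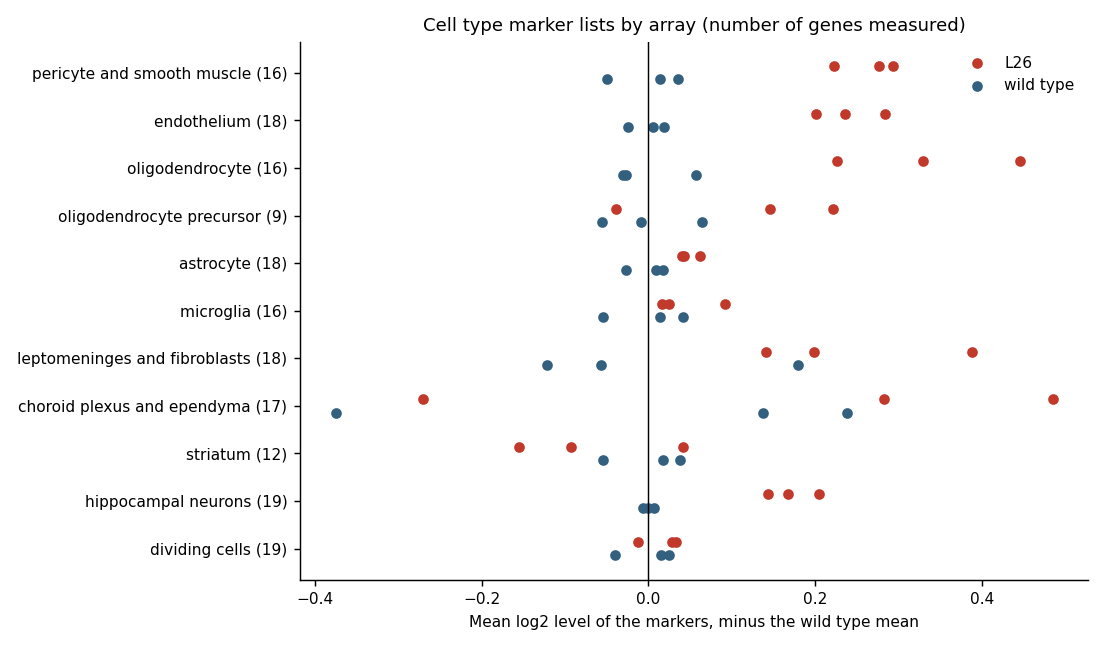
Mean log2 level of each cell type marker list per array, minus the wild type mean, with L26 points drawn above wild type points and the number of genes measured in brackets; Rgs5 is not among the pericyte markers. L26 arrays lie to the right of wild type for pericyte, endothelial, oligodendrocyte and hippocampal neuron markers, narrowly so for astrocyte markers, which overlap once arrays are centred on their medians, and mix with wild type for dividing cells.

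Of the other marker lists, 12 of 16 oligodendrocyte markers rose and 0 fell (75% called, against 5.19% of all genes). Their list means were 11.22 to 11.44 in L26 and 10.96 to 11.05 in wild type. The myelin gene Mal rose by 0.66 (SE 0.09, limma adjusted p = 0.00492) and Olig2, a factor of the oligodendrocyte lineage, by 0.33 (SE 0.05, limma adjusted p = 0.0103). Of 9 markers of oligodendrocyte precursors 1 rose (11.1%), Gpr17, by 0.57. Astrocyte markers had 1 of 18 lower (5.56% called), S100b, by -0.28, but 15 of the 18 had a difference above 0, with a median of 0.05. Microglia markers had 5 of 16 higher and 1 lower (37.5% called). Among the higher were Fcrls by 0.55 and Fcer1g, the neighbour after Olfml2b, by 0.33. Only 8 of the 16 microglia markers had a difference above 0, with a median of 0.00. The microglia list means overlapped (9.21 to 9.28 in L26, 9.14 to 9.23 in wild type). Choroid plexus and ependymal markers had 2 of 17 higher, among them Tmem212 by 0.69, and 1 lower, Kcne2, by -1.73 (17.6% called). The difference was above 0 for 15 of the 17, with a median of 0.27. Their list means overlapped (8.40 to 9.15 in L26, 8.29 to 8.90 in wild type). The part of these lists in the cluster's values was not tested.

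The genes outside the interval with the pattern most like the cluster's over the 6 arrays, by the correlation with its sign-aligned mean, were Shisa4 (0.999), also on chromosome 1, Acot2 (0.998), Lpl (0.997), Neurog2 (0.997) and Pla2g2c (0.996). With 6 arrays in 2 groups such values mostly repeat the group difference, and 802 of 18174 other genes had a correlation above 0.9.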

How the data were processed

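Hippocampal RNA of 3 L26 and 3 wild type mice was measured. The log2 values deposited by the authors came from RMA and the affy package, per the submitters' processing notes (versions not stated there). RMA as usually run subtracts background, quantile-normalizes and combines the probes of a set by median polish, which gives no detection calls and can shrink differences of dim transcripts. The number of arrays, 3 per group, limits the precision, and there is no sequencing depth.

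Of 45101 probe sets, 64 array controls were left out and 45037 tested. The platform annotation named 34945 by 1 symbol, 932 by several and 9160 by none; only the first were used by name, and 34741 were found in the RefSeq table of GRCm38.p6, which gave gene order but no array coordinates. A gene was represented by its brightest probe set over all 6 arrays, without use of group labels. For Uck2 the brightest one still depended on the L26 arrays, since another probe set was brighter in wild type. The test was limma 3.58.1 under R 4.3.3 (lmFit, eBayes, L26 minus wild type, two-sided, Benjamini-Hochberg over all probe sets or all 18193 genes, threshold 0.05). SEs between probe sets of a gene come from the spread of within-array differences, those of single cluster probe sets from the fit over probe sets, and those of list and neighbouring genes from the fit over genes.

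The members and lists were chosen with earlier results of these data known. Named genes are all cluster probe sets, all measured genes between Uck2 and Olfml2b and the 2 nearest on each side, up to 3 called genes of each pathway list and 2 of each marker list with the smallest p (otherwise the 1 nearest), and the 5 most alike in pattern; other probe sets of neighbours (Fam78b, Ddr2, Dusp12, Adamts4) and the called genes Mpzl1 and Fcer1g were picked out after their values were seen. Same-numbered arrays did not deviate together (correlations of -0.0379, -0.0702 and 0.154), so the numbers were not taken as pairs. Alternatives were the replicate block, each array left out, repeated quantile normalization, median centring, removal of the dimmest 40% or of _x_at and _s_at probe sets, a trend with robust prior, the mean of a gene's probe sets and a threshold of 0.1.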

Additional observations from a re-analysis of the deposited data

How the results depend on the processing

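Of the 244 recomputed differences of the cluster's probe sets 239 kept their sign. The exceptions were all of Mgst3 1450563_at, which had 0.01. The block, the trend with robust prior and the removal of probe sets cannot move a difference, so nothing is read from this count. The cluster genes called were 7 to 9 of 10 with 1 array left out, 9 with the mean of a gene's probe sets (Mgst3 was lost), 9 of 9 without the dimmest probe sets, which removed 3110045C21Rik, and 10 under the other settings except the block. With the replicate number as a block, 9 of 10 cluster genes (without Olfml2b) and 12 of 21 cluster probe sets passed, and 635 of all genes and 1330 of all probe sets. With 1 array left out, 9 to 12 of the 21 cluster probe sets were called, 810 to 1430 of all probe sets and 401 to 696 of all genes. At a threshold of 0.1, 3167 probe sets and 1734 genes passed. Centring arrays on their medians gave 717 probe sets higher and 1149 lower, against 892 and 872, and moved the median over genes to -0.02, against 0.01. GTCA was in 100% of cluster promoter windows and GTCANNG in 58.3%. Probe sets without detection calls, 3 arrays per group and 1 transgenic line limit what these values show, and dim probe sets such as that of 3110045C21Rik can understate a difference.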
